A study of Mus musculus with 6 samples.

Results

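Genes of macrophage residence and dead-cell clearance were followed in infarct tissue of mice given the Wnt secretion inhibitor LGK-974: Mertk, Axl, Gas6, Lyve1, Timd4, Folr2, Cd163, Mrc1, Trem2 and Gpnmb. They were chosen by name from what they are known to do, not from a measured value, and make up 10 of the 36047 genes to which the deposited transcripts could be joined. All 10 passed the filter on low counts and were tested among 20094 genes. LGK-974 (spelled LGK974 in the sample labels) is a drug against Porcupine, which puts a lipid on Wnt proteins so that they can leave the cell. Hearts of female C57BL6 mice, 12 weeks old by the labels, were made ischemic by tying off the left anterior descending artery and were then reperfused. This injury was shared by both groups, and there was no uninjured group among the libraries used here. The LGK-974 group (n = 3 mice) received the inhibitor by gavage from the end of surgery, and the DMSO group (n = 3 mice) received the vehicle. Total RNA of the infarct area was sequenced 48 h after ischemia/reperfusion (I/R), with 1 library per mouse. No cells were sorted, so a level in such tissue sums over cardiomyocytes, fibroblasts, vessels and leukocytes, and fewer cells of a type cannot be told apart from less RNA per cell.

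Macrophages that seed the heart before birth or settle there later are recognised by surface proteins such as LYVE1, TIM4, FOLR2, CD163 and the mannose receptor MRC1. After infarction many of these resident cells are lost in the injured zone and monocytes from the blood take their place. Clearance of dying cells, called efferocytosis, starts when a phagocyte recognises phosphatidylserine on the dying cell. It does so directly, as TIM4 does, or through a bridging protein such as GAS6 or protein S (Pros1), which the receptor kinases TYRO3, AXL and MERTK bind. TREM2, a lipid receptor, and GPNMB, a glycoprotein of lysosomes and the cell surface, are known from macrophages that have taken up lipid and cell debris.

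Of the members, Gpnmb and Mrc1 had the smallest p-values, and both were higher under LGK-974. Gpnmb stood at 66.3 ± 16.1 CPM (estimated counts scaled to library size, SD, n = 3) under LGK-974 and at 24.0 ± 9.89 (SD, n = 3) under DMSO, a 2.76-fold difference. Mrc1 stood at 101.1 ± 6.44 CPM and 57.4 ± 13.8, a 1.76-fold difference. The lower values under LGK-974 belonged to Cd163, Timd4 and Lyve1, and in each of these the groups overlapped. Mertk and Gas6 differed by little, with log2 fold changes of 0.11 and 0.10.

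No member passed the test across all genes. The quasi-likelihood test of edgeR, adjusted by Benjamini and Hochberg's method, called 0% of the 20094 genes at an adjusted p under 0.05, so the 0 of 10 members is the background, and the lowest adjusted p over all genes was 0.368, while 2699 genes had an unadjusted p under 0.05. At that unadjusted threshold 2 of the 10 members were higher under LGK-974 and 0 lower, against 6.26% of all genes higher and 7.18% lower. DESeq2, the tool named in the study's methods, gave an adjusted p of 0.00611 for Gpnmb and 0.0221 for Mrc1. It called 0.985% of the 22238 genes with an adjusted p as higher. In 3 members, Gpnmb, Mrc1 and Folr2, every LGK-974 library lay above every DMSO library, which held for 10.7% of all genes. In 0 members did every LGK-974 library lie below, which held for 7.27%. The median log2 fold change was 0.23 over the members and −0.13 over all tested genes, with 7 members above 0 and 3 below. Without DMSO replicate 1, described below, these medians were 0.11 and −0.021.

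**Figure D1:**
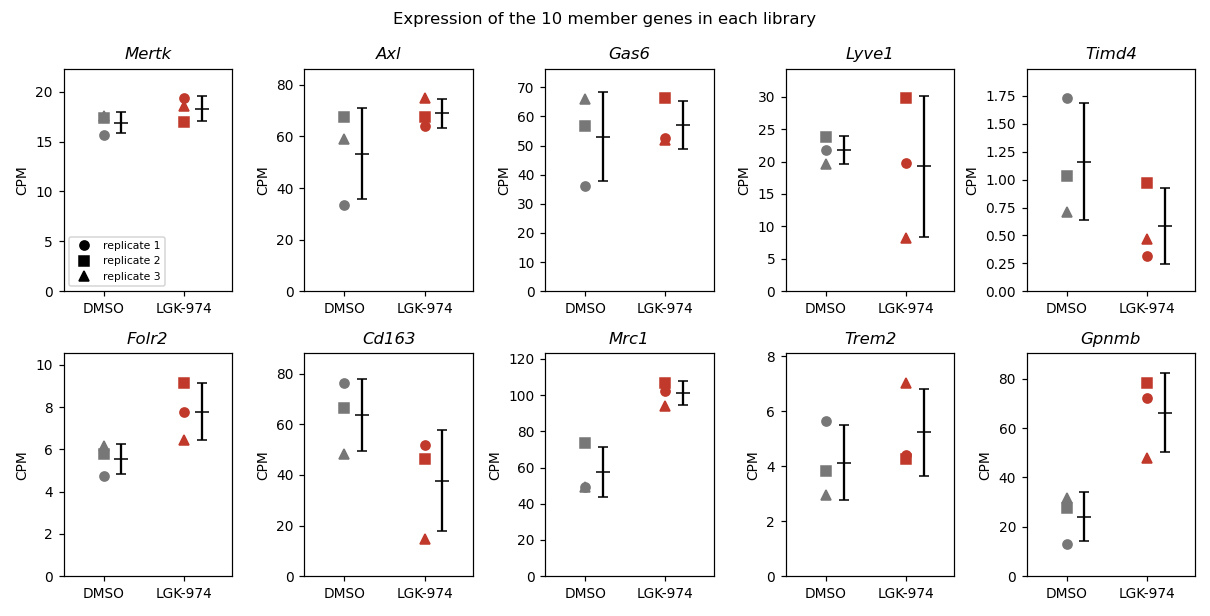
CPM of each member (vertical axes, linear and starting at 0) in the DMSO (grey) and LGK-974 (red) libraries. Each point is 1 mouse with its shape giving the replicate number, and the bar beside the points is the mean with its SD (n = 3). The groups are separate for Gpnmb, Mrc1 and Folr2 and overlap for the other members.

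One control library stood apart, and it touches several values below. The deposited counts summed to 46208470 to 80398211 per library in the LGK-974 group and 41579787 to 48517100 in the DMSO group, and mitochondrial genes held 28.2 to 53.7% and 39.3 to 42.8% of them. Olfactory, vomeronasal and taste receptor genes, 1780 genes that the heart is not known to use, were taken as a measure of background. Their median was 28.2 counts per kb of exon in DMSO replicate 1 and 0.767 to 9.69 in the other 5 libraries. Against this level the members were at 1.13 to 20.1 times the background in DMSO replicate 1, with a median of 7.27, and the median was 31.0 to 352 times in the others. DMSO replicate 1 was the lowest of the 6 libraries in 6 of the 10 members and the highest in 2, Cd163 and Timd4. LGK-974 replicate 3 differed in another way, with the lowest mitochondrial share, 28.2%, and the lowest background, 0.767 counts per kb. Heart muscle was present in every library: 10 cardiomyocyte genes summed to 41420 to 58270 CPM under LGK-974 and 46790 to 64610 under DMSO.

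**Figure D2:**
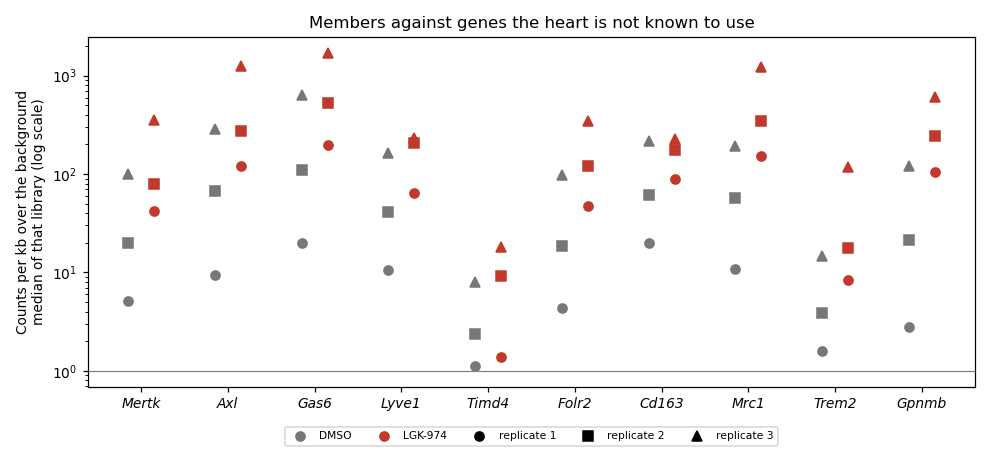
Estimated counts per kb of exon of each member, divided by the median of the background receptor genes in the same library (vertical axis, log scale), with 1 point per library. DMSO replicate 1 (grey circles) is the lowest point of every member, and Timd4 lies near the line at 1 in that library and in LGK-974 replicate 1.

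The members differed widely in abundance per length. Over all 6 libraries the TPM (transcript abundance scaled to transcript length and to the library) averaged 27.6 ± 17.2 (SD, n = 6) for Gpnmb, 26.3 ± 12.6 for Axl and 22.6 ± 8.25 for Gas6. Next came Mrc1 at 15.6 ± 8.21, Cd163 at 11.3 ± 3.47, Folr2 at 8.11 ± 2.65 and Lyve1 at 7.77 ± 1.92. Mertk at 4.30 ± 1.67, Trem2 at 3.24 ± 2.62 and Timd4 at 0.379 ± 0.140 were the least abundant. Neighbours in this order differed by less than the larger of their SDs, except between Lyve1 and Mertk and between Trem2 and Timd4. The order was not the same in both groups: under DMSO the mean TPM of Gpnmb was 13.7, below Axl at 19.9 and Gas6 at 19.6, and under LGK-974 it was 41.5, above Axl at 32.7 and Gas6 at 25.7.

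In the receptor kinases and their ligand the groups overlapped. Mertk lies on chromosome 2 of GRCm38 (chr2:128698956-128802894, plus strand) and encodes the receptor by which macrophages bind bridged dying cells. Its CPM was 19.4, 16.9 and 18.5 in LGK-974 replicates 1, 2 and 3, and 15.7, 17.4 and 17.6 in DMSO replicates 1, 2 and 3. All 6 mice lay close together and the groups overlapped, and the log2 fold change was 0.11 (standard error, SE, 0.142, adjusted p = 0.695). The estimate stayed between 0.012 and 0.26 under the alternatives run.

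Axl (chr7:25757273-25788705, minus strand) encodes a second receptor of the family, which fibroblasts and endothelium carry as well as macrophages. Its CPM was 64.0, 67.7 and 75.1 under LGK-974 and 33.6, 67.6 and 58.9 under DMSO. The low value of DMSO replicate 1 made most of the difference: the log2 fold change was 0.37 (SE 0.257, adjusted p = 0.485), and 0.14 without that library. Gas6 (chr8:13465374-13494490, minus strand), the ligand with the highest affinity for AXL, was at 52.7, 66.5 and 51.9 CPM under LGK-974 and 36.3, 56.8 and 66.1 under DMSO. Its log2 fold change was 0.10 (SE 0.240, adjusted p = 0.843), and −0.094 without DMSO replicate 1. Its exons share 34 bases with Tmem255b on the opposite strand.

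Several partners of this system had higher values under LGK-974. Tyro3, the remaining receptor, was at 3.89 ± 0.585 CPM under LGK-974 and 3.24 ± 0.639 under DMSO, and its groups overlapped (log2 fold change 0.26, unadjusted p = 0.382). Pros1, which encodes protein S, was at 23.1 ± 2.12 and 17.4 ± 1.74 (log2 fold change 0.41, unadjusted p = 0.0285). Its groups did not overlap, and 10.7% of all genes were separate in that direction. Per length, Gas6 exceeded Pros1 in every library, with TPM ratios of 2.78 to 4.46, and Axl exceeded Mertk by 4.26 to 7.24 times. In both ratios the groups overlapped. ADAM10 and ADAM17 are proteases that shed receptors of this family, and Adam10 and Adam17 were at 91.5 ± 8.53 and 44.8 ± 3.84 CPM under LGK-974 and 66.2 ± 9.88 and 32.5 ± 3.0 under DMSO, with log2 fold changes of 0.47 and 0.46 (unadjusted p = 0.0285 and 0.0155). Vkorc1, whose product keeps vitamin K reduced for the carboxylation that GAS6 and protein S need, was at 6.59 ± 0.937 and 3.09 ± 0.271 CPM (log2 fold change 1.09, unadjusted p = 0.0018). Of all genes, 6.26% were higher at an unadjusted p under 0.05. Without DMSO replicate 1 the unadjusted p of edgeR was 0.056 for Pros1, 0.051 for Adam10, 0.024 for Adam17 and 0.0017 for Vkorc1.

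Of 10 fibroblast markers, 4 (Postn, Col3a1, Col1a2 and Col1a1) were higher at an unadjusted p under 0.05 and 0 lower. Over all genes these shares were 6.26% and 7.18%. The 10 summed to 3492 to 5993 CPM under LGK-974 and 1708 to 2523 under DMSO. Their median log2 fold change was 0.54, and no marker was at 0 counts in all libraries. Their part in the values of Axl and Gas6 was not tested.

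Timd4 (chr11:46810800-46844332, plus strand) encodes TIM4, the receptor that binds phosphatidylserine without a bridge and marks long-lived resident macrophages. It was barely above the background in some libraries. The libraries held 27, 52 and 30 estimated counts under LGK-974 and 69, 50 and 29 under DMSO, or 0.318, 0.970 and 0.470 CPM and 1.73, 1.03 and 0.712 CPM. The highest value was that of DMSO replicate 1, where Timd4 was at 1.13 times the background level. It was at 1.38 times background in LGK-974 replicate 1 and at 2.38 to 18.0 times in the other 4 libraries. The log2 fold change was −0.99 (SE 0.698, adjusted p = 0.489), −0.57 without DMSO replicate 1 and −0.21 with the background subtracted from the counts. A difference in Timd4 was thus not detectable at this depth and background.

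The members Mrc1, Cd163, Lyve1 and Folr2 are markers of resident macrophages, and they did not move together. Mrc1 (chr2:14229392-14332057, plus strand) encodes the mannose receptor CD206, an endocytic lectin. Its CPM was 102, 107 and 94.3 under LGK-974 and 49.4, 73.4 and 49.5 under DMSO. The 3 LGK-974 mice lay within a narrow range above all DMSO mice. The log2 fold change was 0.82 (SE 0.201, unadjusted p = 0.00385, adjusted p = 0.368), and between 0.74 and 1.02 with any 1 library left out. In every library 95.4 to 99.0% of its counts lay on the single full-length coding transcript.

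Cd163 (chr6:124304656-124330527, plus strand), the scavenger receptor for hemoglobin bound to haptoglobin, was lower under LGK-974. It was at 51.7, 46.4 and 14.8 CPM under LGK-974 and at 76.5, 66.3 and 48.4 under DMSO. Only LGK-974 replicate 1 lay within the DMSO range. LGK-974 replicate 3 was the lowest by far, and the log2 fold change of −0.76 (SE 0.428, adjusted p = 0.413) was −0.30 without it.

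Lyve1 (chr7:110850607-110863239, minus strand) encodes a receptor for hyaluronan carried by resident macrophages along vessels and by lymphatic endothelium. Its CPM was 19.8, 29.9 and 8.14 under LGK-974 and 21.8, 23.9 and 19.6 under DMSO. The LGK-974 mice enclosed the DMSO mice on both sides. LGK-974 replicate 3 was again the lowest: the log2 fold change was −0.17 (SE 0.402, adjusted p = 0.843) and turned to 0.25 without it. Markers of lymphatic endothelium, the other source of Lyve1, were detected. The 7 tested, among them Prox1, Flt4 and Reln, summed to 95.4 to 150 CPM under LGK-974 and 110 to 124 under DMSO. Of the 7, 1, Pdpn (log2 fold change 1.32), had an unadjusted p under 0.05, as had 6.26% of all genes in that direction. Prox1, the factor that defines this endothelium but is also found in heart muscle, was at 50.9 ± 19.2 and 59.3 ± 15.1 CPM. The part of lymphatic cells in the level of Lyve1 was not tested.

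Folr2 (chr7:101839988-101857194, minus strand), the folate receptor beta of resident macrophages, was at 7.75, 9.16 and 6.45 CPM under LGK-974 and 4.75, 5.77 and 6.14 under DMSO. The groups did not overlap, but the nearest mice, LGK-974 replicate 3 and DMSO replicate 3, differed by less than the SD of either group. The log2 fold change was 0.49 (SE 0.224, adjusted p = 0.369). An annotated antisense gene, Gm10602, shares 975 exon bases with Folr2 and had 0 counts in every library.

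Because Cd163 and Mrc1 went in opposite directions, their balance within a library differed. The TPM ratio of Cd163 to Mrc1, in which library scaling cancels, was 0.649, 0.569 and 0.204 in the LGK-974 mice and 1.98, 1.17 and 1.25 in the DMSO mice. Cd163 was the less abundant of the pair in every LGK-974 mouse and the more abundant in every DMSO mouse. The ratio of Mrc1 to Lyve1 was 2.30, 1.81 and 5.65 against 1.08, 1.23 and 1.23, and that of Folr2 to Lyve1 was 1.16, 0.968 and 2.34 against 0.790, 0.597 and 0.936. Of 11 such ratios 4 were separate between the groups (exact two-sided permutation p = 0.1 each, the smallest that 3 mice against 3 can give, and 0.275 after adjustment over the 11). They were the ratios named above and that of Trem2 to Lyve1. The ratios to Lyve1 share a denominator, so the 4 are not independent results. Each ratio to Lyve1 was highest in LGK-974 replicate 3, where Lyve1 was lowest. How often ratios of other gene pairs were separate was not tested. The pairs were picked once the data were at hand.

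The remaining members are Trem2 and Gpnmb. For Trem2 (chr17:48346401-48354147, plus strand) the count per gene was a mixture of coding and intron-retaining transcripts. Of its 4 annotated transcripts, 1 keeps the first intron (chr17:48346596-48348456, 1861 bases) and ends further downstream, and it is not annotated as protein-coding. The 2 forms part at the end of exon 1, and the bases that tell them apart are shown here, with the end of exon 1 in lower case and the first 20 bases that follow it in capitals (GRCm38, plus strand, from the GENCODE transcripts).
Spliced coding form: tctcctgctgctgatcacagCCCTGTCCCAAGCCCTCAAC
Intron kept: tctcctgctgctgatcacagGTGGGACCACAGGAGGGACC
The intron begins with GTGGGA, the usual GT of a splice donor, where the spliced form goes on with the coding bases of exon 2.

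The intron-retaining transcript held 45.2% of the Trem2 counts in LGK-974 replicate 1 (95% Wilson interval 40.2 to 50.3, counting error only), 40.4% in replicate 2 (34.2 to 46.8) and 42.7% in replicate 3 (38.2 to 47.3). In DMSO replicates 1, 2 and 3 it held 95.1% (91.4 to 97.2), 49.7% (42.6 to 56.9) and 52.5% (43.6 to 61.2). All DMSO shares lay above all LGK-974 shares, and DMSO replicate 1 had almost no counts on the coding forms. These shares rest on Kallisto's division of reads that both forms contain. The intron-retaining transcript is 4784 bases long and the coding forms 1088 and 1056. Background was 8.99, 2.62 and 0.767 counts per kb in LGK-974 replicates 1, 2 and 3, and 28.2, 9.69 and 1.66 in DMSO replicates 1, 2 and 3. The part of background reads in these shares was not tested.

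**Figure D3:**
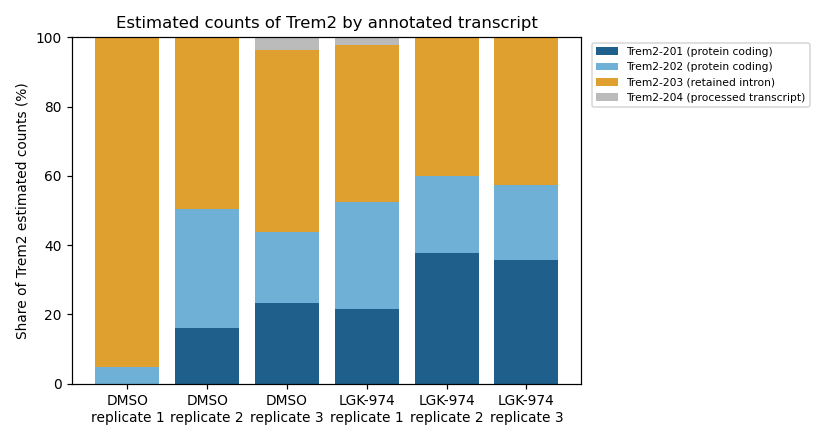
Share of the estimated counts of Trem2 on each of its 4 annotated transcripts (vertical axis, percent), 1 bar per library. The retained-intron transcript (orange) fills 95.1% of the bar of DMSO replicate 1 and 40.4 to 52.5% of the others.

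Summed over all transcripts, Trem2 was at 4.39, 4.26 and 7.05 CPM under LGK-974 and 5.63, 3.83 and 2.95 under DMSO. The groups overlapped through DMSO replicate 1 (log2 fold change 0.34, SE 0.337, adjusted p = 0.614). That library, at 1.61 times the background level, was also the one made up of the intron-retaining form. With protein-coding transcripts alone, a choice made after the data were seen, Trem2 was at 2.48, 2.71 and 4.24 CPM under LGK-974 and 0.344, 2.09 and 1.37 under DMSO. All LGK-974 mice then lay above all DMSO mice, as 11.4% of the 17179 genes tested that way did. The log2 fold change was 1.30 (SE 0.632, unadjusted p = 0.0747, adjusted p = 0.350), and 0.87 without DMSO replicate 1 (unadjusted p = 0.0528). Tyrobp, the adaptor through which TREM2 signals, was at 8.58 ± 1.13 CPM under LGK-974 and 4.38 ± 1.38 under DMSO (log2 fold change 0.97, unadjusted p = 0.00968).

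Gpnmb (chr6:49036546-49070929, plus strand) had the largest difference of the members. Its CPM was 72.3, 78.5 and 48.0 under LGK-974 and 12.8, 27.6 and 31.6 under DMSO. The lowest LGK-974 mouse lay above the highest DMSO mouse. The log2 fold change was 1.46 (SE 0.348, unadjusted p = 0.00319, adjusted p = 0.368). DMSO replicate 1, where Gpnmb was at 2.78 times the background level, was the lowest. Without it the log2 fold change was 1.18 in edgeR (unadjusted p = 9.5e-04) and 1.16 in DESeq2 (adjusted p = 5.75e-04), and the groups remained apart. Leaving out any 1 library gave log2 fold changes from 1.18 to 1.81. On protein-coding transcripts alone Gpnmb was at 62.1 ± 15.8 and 23.0 ± 8.50 CPM, with a log2 fold change of 1.43.

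The promoters of Mrc1 and Gpnmb, the 2 members that DESeq2 called, are shown because Gpnmb is known as a target of MITF and related lysosomal factors, which bind the letters CATGTG and CACGTG. Each run holds the 250 bases before the RefSeq start of the gene (GRCm38.p6, plus strand), with matches to CATGTG on either strand in capitals.
Mrc1, chr2:14229164-14229413: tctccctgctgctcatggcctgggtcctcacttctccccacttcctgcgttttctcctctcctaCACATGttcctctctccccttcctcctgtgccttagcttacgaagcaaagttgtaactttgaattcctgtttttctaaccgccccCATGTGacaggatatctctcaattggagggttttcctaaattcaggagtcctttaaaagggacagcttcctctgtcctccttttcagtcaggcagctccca
Gpnmb, chr6:49036268-49036517: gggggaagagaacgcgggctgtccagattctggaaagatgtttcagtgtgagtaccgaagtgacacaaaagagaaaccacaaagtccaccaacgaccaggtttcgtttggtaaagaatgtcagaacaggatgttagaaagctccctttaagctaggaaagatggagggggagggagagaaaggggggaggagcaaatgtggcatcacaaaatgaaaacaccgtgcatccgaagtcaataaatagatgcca
Mrc1 held CATGTG at −186 on the minus strand and at −101 on the plus strand, and Gpnmb held neither form. In windows from 250 bases before to 50 bases after the start, CATGTG was in 14.2% of the 32851 promoters and CACGTG in 7.15%. RefSeq had windows for 9 of the 10 members, 10 in all. Timd4 had CATGTG at −181, and 1 of the 2 windows of Folr2 had it at −155. No member window held GAGGAAGT, the core of the PU.1 site (3.20% of promoters), or the LXR element DR4 (0.0152%).

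General macrophage genes were higher under LGK-974 in every library. Adgre1 (F4/80), Csf1r, Cd68, Fcgr1, Mpeg1 and Fcer1g, which most macrophages carry, had log2 fold changes of 0.78 to 1.38 and no overlap between groups. Their mean log2 CPM was 5.35, 5.18 and 5.50 in the LGK-974 mice and 3.94, 4.66 and 4.27 in the DMSO mice, a difference of 1.05 (exact two-sided permutation p = 0.1, the smallest possible). Relative to these 6 genes, Gpnmb was the one member with a higher mean under LGK-974, by 0.48 on the log2 scale (0.26 without DMSO replicate 1, 0.27 without LGK-974 replicate 2, 0.78 without LGK-974 replicate 3 and 0.74 without DMSO replicate 3), and Mrc1 was close to the reference at −0.21. In both the groups overlapped (exact permutation p = 0.3, and 0.3 after adjustment over the 10 members).

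Relative to the reference, the LGK-974 mice all lay below the DMSO mice in 6 members: Mertk, Axl, Gas6, Lyve1, Timd4 and Cd163. Their differences on the log2 scale were −0.94, −0.62, −0.91, −1.41, −2.10 and −1.98 (exact permutation p = 0.1 each, adjusted 0.167). This is not particular to them, since 75.7% of 18460 genes with counts in all libraries lay below the reference in the same way, with a median difference of −1.11. Set beside that median, Lyve1, Cd163 and Timd4 were further below it and the other 7 members were above it. The place of Lyve1 rested on LGK-974 replicate 3, without which its difference was −0.81. Folr2 (−0.57, p = 0.2 in the exact permutation test, adjusted 0.286) and Trem2 (−0.70, p = 0.3, adjusted 0.3, exact permutation) overlapped between the groups. How far the number of macrophages moved the levels of Gpnmb, Mrc1 and Folr2 was not tested.

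**Figure D4:**
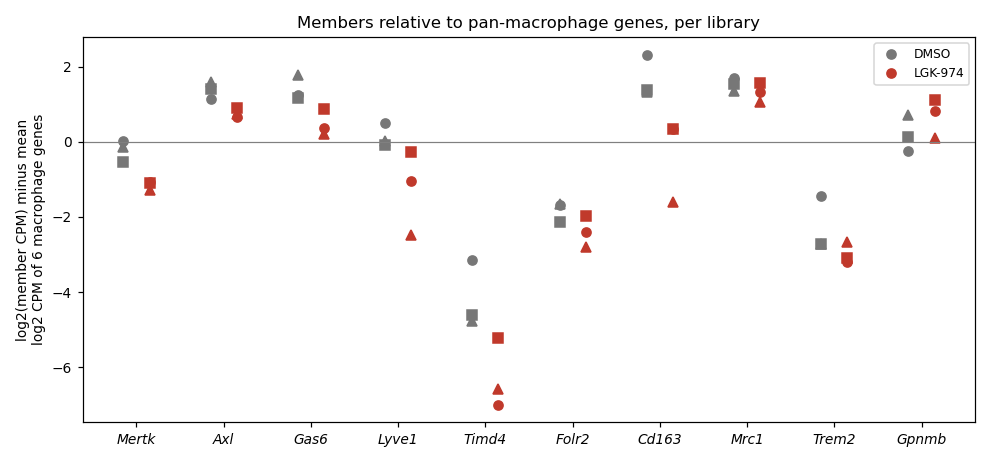
Log2 CPM of each member minus the mean log2 CPM of 6 pan-macrophage genes in the same library (vertical axis), with DMSO in grey and LGK-974 in red and 1 point per mouse. Mertk, Axl, Gas6, Lyve1, Timd4 and Cd163 lie lower in all LGK-974 mice, and Gpnmb is the one member whose mean is higher.

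Other genes of resident macrophages had no common direction. Of 20 tested, 13 had a log2 fold change above 0 and 7 below, with a median of 0.081. At an unadjusted p under 0.05, 2 were higher and 1 lower, against 6.26% and 7.18% of all genes. Without DMSO replicate 1 the median was 0.21, with 3 higher and 0 lower. Ednrb, an endothelin receptor gene, was at 24.3 ± 2.05 CPM under LGK-974 and 18.4 ± 0.558 under DMSO (log2 fold change 0.40). The transporter Slco2b1 was at 7.58 ± 2.63 and 11.9 ± 1.58 (−0.65). Pf4 was at 36.1 ± 3.29 and 23.0 ± 9.92 CPM and missed the threshold (unadjusted p = 0.0566). Without overlap, 3 of the 20 were higher and 4 lower, against 10.7% and 7.27% of all genes.

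Genes that accompany TREM2 and GPNMB in lipid-laden macrophages leaned to higher values. Of 13 tested, 12 had a log2 fold change above 0, and the median was 0.56. At an unadjusted p under 0.05, 8 were higher, against 6.26% of all genes. In 10 all LGK-974 libraries lay above all DMSO libraries, as in 10.7% of all genes. The lean was not particular to this list: the 6 general macrophage genes had a median of 0.97, and all 6 were separate between the groups. Spp1, which encodes osteopontin, was at 312 ± 94.4 CPM under LGK-974 and 100.1 ± 25.1 under DMSO (log2 fold change 1.64). Fabp5, a fatty acid carrier, was at 28.9 ± 5.24 and 13.1 ± 2.74 (1.14), Lgals3, which encodes galectin-3, at 58.4 ± 3.27 and 25.5 ± 10.5 (1.20), and the integrin gene Itgax at 6.15 ± 2.99 and 2.40 ± 0.505 (1.36). The 8 LXR and PPAR genes, which answer to cholesterol and fatty acids, had a median of 0.12 with 0 genes at an unadjusted p under 0.05. The cholesterol exporter Abca1 was at 55.9 ± 4.54 and 41.8 ± 8.84 CPM (unadjusted p = 0.0606).

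**Figure D5:**
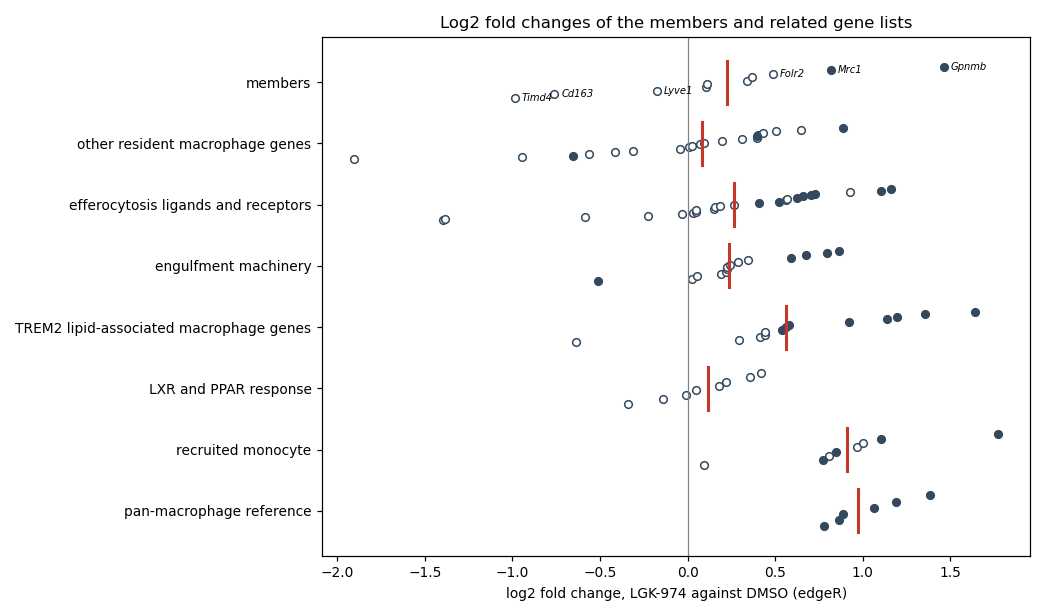
Log2 fold change, LGK-974 over DMSO (horizontal axis), for each tested gene of the members and of related lists. Filled points have an unadjusted edgeR p under 0.05, and red bars are list medians, 0.23 for the members, 0.56 for the TREM2-associated genes and 0.97 for the pan-macrophage genes.

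The other receptors and ligands of efferocytosis were spread around a median log2 fold change of 0.26. Of 23 tested, 18 were above 0 and 5 below. At an unadjusted p under 0.05, 8 were higher and 0 lower, against 6.26% and 7.18% of all genes. The lean was not particular to this list: all 6 general macrophage genes were higher at that threshold, with a median of 0.97. The scavenger receptor gene Msr1 was at 45.4 ± 6.54 CPM under LGK-974 and 21.1 ± 4.18 under DMSO (log2 fold change 1.11), and Havcr2, which encodes TIM3, at 9.71 ± 1.03 and 4.34 ± 0.840 (1.16). C1qb, a subunit of complement C1q, was at 55.9 ± 2.39 and 33.7 ± 10.7 (0.73), and Calr, which encodes calreticulin, at 352 ± 65.2 and 223 ± 33.6 (0.66). Mfge8, the bridge to integrins, was at 48.2 ± 4.54 and 42.5 ± 8.83 (unadjusted p = 0.371). Of 14 genes of the engulfment machinery 4 were higher and 1 lower at that threshold, against the same shares of all genes. The 4 with the smallest p-values, Vav3, Dock2, Rac2 and Vav1, had log2 fold changes of 0.59 to 0.87. Of 4 genes that restrain engulfment, Cd24a (1.17) and Sirpa (0.82) were higher at that threshold, and Cd47 had a log2 fold change of 0.30 (unadjusted p = 0.0946).

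Markers of recruited monocytes were also higher. All 8 tested had a log2 fold change above 0, with a median of 0.91. At an unadjusted p under 0.05, 4 (Chil3, Fn1, Vcan and Hp) were higher, against 6.26% of all genes. Their summed level was 788 to 1957 CPM under LGK-974 and 352 to 503 under DMSO. Much of that sum was Fn1, at 1047 ± 585 and 306 ± 63.8 CPM, which fibroblasts express too. Fn1 was at 848, 587 and 1705 CPM in LGK-974 replicates 1, 2 and 3, and the sum was highest in replicate 3, where Fn1 was highest. Cardiomyocyte markers were mostly the reverse in sign, with a median of −0.43 (−0.53 without DMSO replicate 1) and 9 of 10 below 0. Of these 9, 0 had an unadjusted p under 0.05. The 1 marker above 0 did, and its groups did not overlap. Several other medians changed sign without DMSO replicate 1: from −0.13 to 0.059 for neutrophil markers, from −0.32 to 0.16 for dendritic cell markers, from −0.89 to 0.018 for T and B cell markers, from 0.033 to −0.024 for blood endothelial markers and from 0.0037 to −0.084 for erythroid markers. The part of recruited monocytes in the values of the members was not tested.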

How the data were processed

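RNA sequencing libraries of infarct tissue were analysed for 3 LGK-974 and 3 DMSO mice, grouped by the sample labels. The study names both RiboZero depletion and a TrueSeq RNA Access kit, which selects coding sequence. With Kallisto and an index of GRCm38, the authors assigned reads to 118489 transcripts and deposited, per transcript, its estimated count and its TPM. The Kallisto version and trimming are not given in the sources used here. Of these transcripts 98.6% were joined to 36047 genes with GENCODE M21, and the sum of the estimated counts of each gene was rounded. Reads shared by transcripts or overlapping genes stay divided as Kallisto divided them. The main test was the quasi-likelihood test of edgeR 4.0.16 in R 4.3.3, with TMM scaling, on the 20094 genes that reached 10 counts in 3 or more libraries, treatment as the sole factor, Benjamini-Hochberg adjustment over all genes and a threshold of 0.05. DESeq2 1.42.0 and limma-voom (limma 3.58.1) were alternatives. DESeq2 was run without this filter on low counts, so its fits differ from the main test in filter as well as in test. CPM were TMM-scaled. TPM, as the authors deposited them, were summed per gene for levels and ratios. Single values were compared with exact two-sided permutation tests (SciPy 1.17.1). The smallest p that 3 mice against 3 allow is 0.1. The scripts were tested on simulated data. Python 3.11.15, pandas 2.3.3, NumPy 2.4.6 and matplotlib 3.10.9 were used for tables and figures.

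All members are named, and of each other list up to 4 genes with the smallest p-values, direct partners of members and all pan-macrophage genes. One gene that this rule names is not reported here. The members and lists were chosen with earlier results of these data known. DESeq2 without DMSO replicate 1 and the restriction to protein-coding transcripts were added after seeing the data. The number of mice, the background of DMSO replicate 1 and, for Timd4 and Trem2, low counts limited precision.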

Additional observations from a re-analysis of the deposited data

How the results depend on the processing

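The members were refitted with another normalization, filter, counting unit, test, background correction, replicate block and choice of libraries. The count of members called by adjusted p, 0 in the main edgeR fit, was 2 in DESeq2, 2 in DESeq2 without DMSO replicate 1 and 2 in DESeq2 on protein-coding transcripts only (Gpnmb and Mrc1 each time). These DESeq2 fits called 315 of 34257, 326 of 31070 and 517 of 21570 genes fitted, whether or not a gene had an adjusted p. In the first of these fits 22238 genes had one. In edgeR with no filter on low counts 1 member was called (Gpnmb, adjusted p = 1.62e-04), and so were 3.52% of 34257 genes. The count of members called was 0 in the other fits, all leave-one-out fits included. The count of members without overlap, 3, was 5 with no filter on low counts (12.7% of all genes), and from 4 to 7 with 1 library left out, where fewer libraries are easier to separate. It was 6 without LGK-974 replicate 2 and 7 without DMSO replicate 3, where 30.4% and 46.2% of all genes did not overlap, against 18.0% with all libraries. Gas6, 0.10, turned to −0.055 with counts less background, −0.11 in DESeq2 without DMSO replicate 1 and −0.11 on protein-coding transcripts without that library, and ran from −0.094 (without DMSO replicate 1) to 0.39 with 1 library left out. Lyve1, −0.17, ran from −0.56 to 0.25 with 1 library left out, the last without LGK-974 replicate 3. The causes were not tested. The other 8 members kept the sign of their log2 fold change under all 19 alternatives. The log2 ratio of Trem2 to the macrophage genes was −0.70 with CPM and −0.11 with TPM. The replicate numbers of the labels do not mark shared animals. Deviations of same-numbered libraries correlated at 0.498, −0.0752 and 0.305, and those of differently numbered libraries at −0.531 to 0.185. Whether same-numbered libraries shared a batch was not tested. With the replicate block in edgeR the count of members called stayed 0, and the median was 0.24. In that fit 3 members had an unadjusted p under 0.05 (Cd163 joined, −0.92, adjusted p = 0.154), as did 3312 of all 20094 genes.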
